A study of Mus musculus with 12 samples.

Results

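The 48 genes described here encode the nuclear subunits of respiratory complexes II to V. They were taken from a table of 25117 mouse gene symbols by name: Sdha to Sdhd for complex II, Cyc1 and symbols starting with Uqcr for complex III, Cox4 to Cox8 for complex IV and Atp5 for complex V. Processed pseudogene rows (1 row, Cox7c-ps1) were left out, and the table used here held 0 rows of mitochondrial DNA. Of the 48 genes, 44 passed a minimum of 1 TPM (a read share corrected for transcript length) in at least 3 libraries and were tested: 4 of 4 in complex II, 9 of 9 in complex III, 14 of 18 in complex IV and 17 of 17 in complex V.

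The libraries were made from poly(A) RNA of mouse embryonic fibroblasts (MEFs), all of them Rbbp5 flox/flox and carrying Cre at both Rosa26 alleles. RBBP5 belongs to the core of the SET1/COMPASS complexes, which methylate histone H3. Cells labelled RBBP5 KO received tamoxifen for 7 days and cells labelled wildtype did not. In both cases 16 hours in full DMEM or in EBSS, a balanced salt solution without amino acids, followed. The growth medium listed for all libraries held 10% serum. Whether EBSS held serum is not said in the labels. There were 3 libraries in each of the 4 groups, 12 in all. No control group received tamoxifen, so its effects and those of active Cre cannot be told apart from those of RBBP5 loss. The labels call the replicates biological but do not say whether they came from separate embryos or cultures, so p-values measure the spread between these libraries only.

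The respiratory chain passes electrons from NADH and succinate to oxygen and pumps protons across the inner mitochondrial membrane, and ATP synthase, complex V, uses that gradient to make ATP. Complex II, succinate dehydrogenase, is built only from nuclear-encoded subunits and is also an enzyme of the citric acid cycle. Complexes III, IV and V also hold subunits encoded by mitochondrial DNA, so the nuclear mRNAs below are only part of what each complex needs. Several complex IV subunits exist as isoforms typical of muscle, lung or testis beside a widely expressed form, and the c ring of ATP synthase is made from 3 genes that encode the same mature protein.

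Promoter sequence is shown for the members with the largest rise in complexes II, III and IV in KO cells in full medium, for the most abundant member (Atp5b), and for Sdhd, a complex II gene that fell. The letters are upstream of each RefSeq transcript start on GRCm38.p6, 5′ to 3′ on the gene's strand, and are the longest stretch there that is free of annotated exons. Capitals mark 3 motifs searched on both strands: GCGCANGCG, the core of sites bound by NRF1, CCGGAAG, bound by ETS factors such as GABP, and GGGCGGG, bound by Sp1.
Sdhb (chr4:140961021-140961202, plus strand): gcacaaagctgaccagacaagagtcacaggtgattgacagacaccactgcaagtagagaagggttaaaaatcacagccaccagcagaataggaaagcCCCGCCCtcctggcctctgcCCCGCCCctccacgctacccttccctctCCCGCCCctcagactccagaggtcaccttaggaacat
Uqcr11 (chr10:80406831-80407071, minus strand): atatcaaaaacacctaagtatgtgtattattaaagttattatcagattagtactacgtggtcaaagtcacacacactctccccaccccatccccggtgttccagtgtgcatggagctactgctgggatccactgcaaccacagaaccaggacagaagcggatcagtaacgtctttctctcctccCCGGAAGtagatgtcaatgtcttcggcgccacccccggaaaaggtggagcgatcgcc
Cox6a1 (chr5:115348982-115349129, minus strand): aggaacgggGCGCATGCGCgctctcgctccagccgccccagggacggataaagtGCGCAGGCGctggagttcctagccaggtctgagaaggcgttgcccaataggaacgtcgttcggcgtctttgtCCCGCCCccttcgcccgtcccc
Atp5b (chr10:128083057-128083272, plus strand): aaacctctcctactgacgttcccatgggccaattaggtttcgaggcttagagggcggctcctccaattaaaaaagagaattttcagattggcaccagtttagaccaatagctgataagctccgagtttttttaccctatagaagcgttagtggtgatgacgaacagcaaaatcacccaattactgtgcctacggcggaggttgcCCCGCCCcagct
Sdhd (chr9:50603850-50603909, minus strand): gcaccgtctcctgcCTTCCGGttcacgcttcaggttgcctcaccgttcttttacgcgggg

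Of the 48 members, 36 had a promoter in the RefSeq table. Within 250 bases upstream, 7 (19.4%) held the NRF1 letters, against 5.33% of all 27025 promoters of that length and 7.24% of the 17491 of protein-coding genes. The ETS letters stood in 8 (22.2%, against 7.05% and 9.12%) and the Sp1 letters in 10 (27.8%, against 23.6% and 31.2%). AAGATGGCG, a YY1 motif, stood in 0 (against 0.607% and 0.698%). Adjacent NRF1 letters in the Cox6a1 promoter overlap on the 2 strands. Matches outside the stretches shown above are counted too. Among them are the NRF1 letters of Sdhd, 79 bases before the start, and the ETS letters of Cox6a1, 16 bases before it. The NRF1 letters were in 2 of 19 promoters of members that rose in KO cells in full medium (Cox6a1, Atp5h), in 2 of 5 of those that fell (Sdhd, Atp5g2) and in 3 of 10 of those that did not pass the test. A match describes letters in this window and is not a measured binding site.

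Rbbp5 checks the labels. It was at 26.2, 25.7 and 26.2 TPM in wildtype and 7.47, 9.34 and 8.31 TPM in KO libraries in full medium. In EBSS it was at 31.9, 24.6 and 23.0 TPM in libraries labelled KO and at 12.4, 14 and 11.8 TPM in libraries labelled wildtype, against both labels as deposited. After median-of-ratios scaling, which sets the median gene equal across libraries, Rbbp5 was at 20.8 to 21.1 units of scaled TPM in wildtype and 7.27 to 8.25 in KO in full medium, at 18.6 to 22.3 in labelled wildtype, EBSS and at 19.5 to 25.3 in labelled KO, EBSS. Labelled KO, EBSS thus went against its label under both scalings and labelled wildtype, EBSS only as deposited, and after scaling the EBSS groups overlapped. The EBSS groups are therefore named by their labels throughout, and every direction that involves them rests on labels in doubt. Libraries labelled wildtype, EBSS also stood apart: their share of TPM in cytosolic ribosomal protein genes was 31.6% to 34.1%, against 14.6% to 18.3% in the other 9, Rn45s, a ribosomal RNA precursor, was at 1454 to 2105 TPM against 68.3 to 272 TPM, and their size factors were 0.593 to 0.636 against 1.03 to 1.26. Replicate 3 of that group listed 1122 tested genes at 0, and the others 12 to 229. KO libraries in full medium also lay apart from wildtype, with ribosomal protein shares of 16.4% to 18.3% against 14.7% to 15%. Their Rn45s was at 176 to 272 TPM against 68.3 to 69.3 TPM, and their size factors were 1.03 to 1.13 against 1.24 to 1.25. All 12 fibroblast markers were detected in every group, with sums of 9129 to 9395 TPM in wildtype and 6568 to 7228 TPM in KO cells in full medium. Sequencing depth is unknown, because TPM keeps none.

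In wildtype cells in full medium the 48 mRNAs summed to between 17640 and 17780 TPM per library, 1.78% to 1.79% of each column. Atp5b, the catalytic beta subunit of F1, was the most abundant at 1600 ± 110.0 TPM (mean ± SD, n = 3), followed by Cox6c at 884 ± 6.79 and Cox4i1 at 768 ± 41.0 TPM. Neighbours in this order often did not differ beyond their spread: Cox6b1 (714 ± 15.6 TPM), Atp5h (694 ± 4.89 TPM) and Atp5k (672 ± 99.2 TPM) lay within the error of Atp5k. The lowest broadly expressed members were Uqcrq (85.2 ± 5.03 TPM) and the Rieske iron-sulphur protein gene Uqcrfs1 (93.1 ± 5.46 TPM), both of complex III. Complex II genes were also low, from 117 ± 2.28 TPM for Sdha to 204 ± 6.36 TPM for Sdhd.

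The tissue isoforms were near absent. In wildtype cells in full medium Cox6b2 (testis) was at 3.22 ± 0.702 TPM, Cox7a1 (heart and muscle) at 3.06 ± 0.289 TPM and Cox6a2 (heart and muscle) at 1.05 ± 0.410 TPM. The 4 untested members were Cox4i2, the lung isoform, which stayed at or below 0.248 TPM in every library, Cox7b2, listed at 0.180 and 0.221 TPM in KO, full medium replicates 1 and 2 and at 0 elsewhere, and Cox8b and Cox8c, listed at 0 in all 12 libraries. Their widely expressed partners were high: Cox4i1 exceeded 695 TPM and Cox8a 374 TPM in every library.

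**Figure D1:**
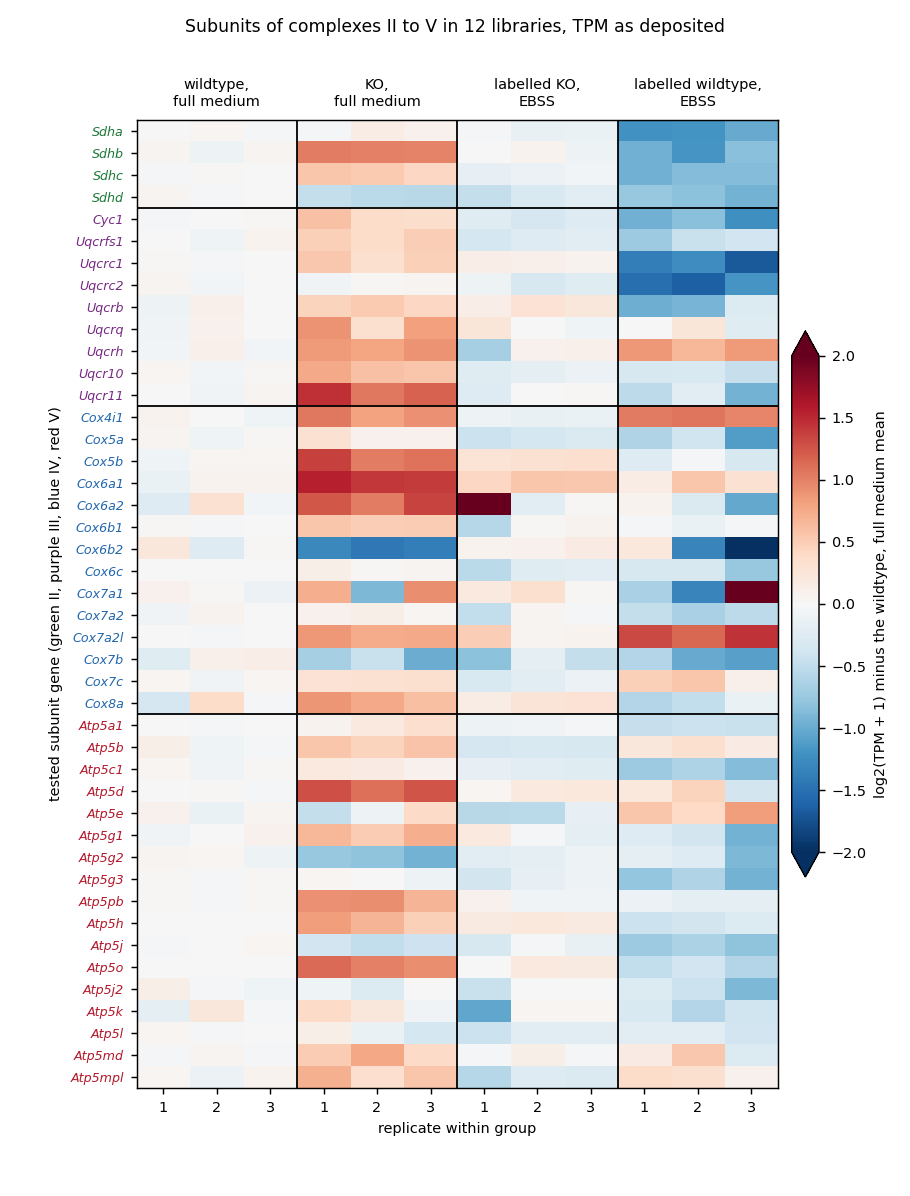
Heat map of the 44 tested genes (rows, grouped by complex) in 12 libraries (columns, 3 replicates in each of 4 groups). Colour gives log2(TPM + 1) minus the mean of wildtype, full medium. Most rows are red in KO, full medium, while Sdhd, Cox6b2, Cox7b, Atp5g2 and Atp5j are blue, and the libraries labelled wildtype, EBSS show strong red and strong blue side by side.

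The first comparison asks how subunit mRNA differed between KO and wildtype cells in full medium. Most subunits were higher in KO cells: 26 rose and 5 fell, and 13 were not called (limma on log2(TPM + 1), Benjamini-Hochberg adjusted p under 0.05 over 12653 genes). In that comparison 55.9% of all tested genes were called, 20.1% as higher and 35.8% as lower. The median log2 change was 0.45 for the members and −0.17 for all genes. After median-of-ratios scaling 28 members rose and 2 fell, with medians of 0.64 and 0.01 and 26.7% and 27% of all genes called higher and lower. The same 26 members rose under both scalings, and of the 5 that fell Sdhd and Atp5g2 fell under both, where 19.9% and 27% of all genes rose and fell under both. All 3 KO libraries lay above all 3 wildtype libraries for 30 members and below them for 5, against 30.5% and 49.7% of tested genes. Across 12413 tested genes matched to a GENCODE transcript length by symbol, the deposited change had a Spearman rho of −0.2 with length. Across the 42 matched members rho was −0.038. The median length was 652 bases for these members and 2088 for all matched genes. The part of transcript length in the rises was not tested.

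The summed mRNA of all 48 genes was 24400 to 26570 TPM in KO libraries, above the wildtype range of 17640 to 17780. Complex III went from 2299 ± 23.1 to 3887 ± 282 TPM, complex IV from 5590 ± 168 to 8673 ± 523, complex V from 9201 ± 125 to 11850 ± 438 and complex II from 597 ± 8.99 to 745 ± 13.2 (n = 3 each). KO replicate 1 had the highest sum and was the highest of its 3 libraries for 27 of 44 members. The sums were not tested.

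**Figure D2:**
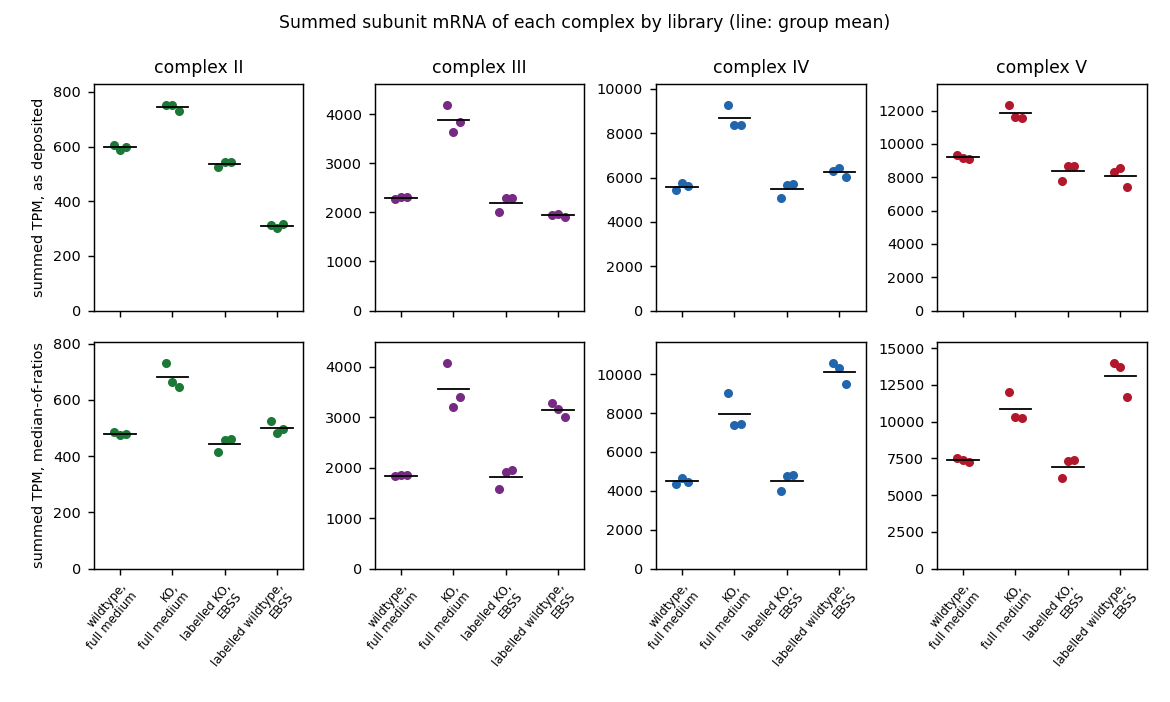
Summed TPM of the members of each complex (columns) in each library, as deposited (upper row) and median-of-ratios scaled (lower row). Points are libraries and lines group means. KO, full medium lies above wildtype, full medium in all 8 panels, whereas the position of labelled wildtype, EBSS depends on the scaling.

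The 4 subunits of complex II did not move together: 2 rose, 1 fell and 1 did not pass. Of all tested genes 20.1% rose and 35.8% fell. Sdhb, the iron-sulphur subunit (chromosome 4, 140961203 to 140979193 on GRCm38), was at 152, 137 and 152 TPM in wildtype and 301, 297 and 293 TPM in KO libraries. The groups did not overlap, and the log2 change was 1.01 (SE 0.09, limma adjusted p = 4.5e-06). Sdhd, a membrane anchor (chromosome 9, 50596357 to 50603812), went the other way, from 211, 198 and 202 TPM to 146, 139 and 139 TPM, a log2 change of −0.52 (limma adjusted p = 0.00019). The ratio of Sdhb to Sdhd was therefore 0.692 to 0.753 in wildtype and 2.06 to 2.14 in KO cells. Multiplying a library by a common factor does not change this ratio. The other anchor, Sdhc, rose from 129.8 ± 2.85 to 183 ± 9.06 TPM. Sdha, the flavoprotein that oxidizes succinate, was at 117 ± 2.28 and 123 ± 7.58 TPM, and its log2 change of 0.07 did not pass (limma adjusted p = 0.48). After median-of-ratios scaling Sdha did pass, at 0.25 (limma adjusted p = 0.0043).

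In complex III, which passes electrons from ubiquinol to cytochrome c, 8 of 9 subunits rose under both scalings and 0 fell. Under both, 19.9% of all tested genes rose and 27% fell. Uqcr11, a small subunit (chromosome 10, 80402997 to 80406830), was at 512, 485 and 524 TPM in wildtype and 1398, 1058 and 1147 TPM in KO libraries. It had the largest rise of the complex, 1.23 on the log2 scale (SE 0.16, limma adjusted p = 7.6e-05). Uqcrh, the hinge protein that helps cytochrome c bind, rose from 454 ± 27.4 to 820 ± 31.3 TPM. Cyc1, which encodes cytochrome c1, and the Rieske gene Uqcrfs1 rose less, by log2 changes of 0.44 and 0.45. The core proteins differed: Uqcrc1 rose by 0.45 (limma adjusted p = 0.0031), and Uqcrc2 was at 113 ± 4.04 and 114 ± 5.30 TPM, a change of 0.00 with a 95% interval from −0.24 to 0.24. For Uqcrb the call of 0.46 (limma adjusted p = 0.025) was lost when any of wildtype replicates 1 and 3 or KO replicates 1 and 2 was left out, at 0.41 to 0.47 and adjusted p of 0.058 to 0.085.

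In complex IV, cytochrome c oxidase, 7 of 14 tested members rose and 2 fell, against 20.1% and 35.8% of all tested genes. After median-of-ratios scaling 7 rose and 0 fell, against 26.7% and 27%. Cox6a1 (chromosome 5, 115345642 to 115348981), the widely expressed form of a subunit at the dimer interface, had the largest rise of all members. It was at 435, 501 and 499 TPM in wildtype and 1410, 1272 and 1263 TPM in KO libraries, a log2 change of 1.46 (SE 0.11, limma adjusted p = 9.7e-07). Cox5b, a matrix-side subunit, rose by 1.16 to 954 ± 127 TPM. Cox4i1 (chromosome 8, 120668222 to 120674207), needed for assembly of the complex, was the most abundant of complex IV over all libraries. It went from 809, 769 and 727 TPM to 1602, 1342 and 1440 TPM, a log2 change of 0.92 (limma adjusted p = 2.3e-06). Cox8a and Cox7a2l rose by 0.75 and 0.79, Cox6b1 by 0.52 and Cox7c by 0.30. The Cox7c call had an adjusted p of 0.031 and was lost without each of the 6 full medium libraries in turn, at log2 changes of 0.27 to 0.32.

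The complex IV members that fell were Cox7b and the testis isoform Cox6b2. Cox7b, on the X chromosome, was at 208, 264 and 269 TPM in wildtype and 155, 180.1 and 122 TPM in KO libraries, a log2 change of −0.70 (limma adjusted p = 0.0096). Cox6b2 was at 3.90, 2.49 and 3.27 TPM in wildtype and at 0.705, 0.550 and 0.600 TPM in KO libraries, −1.37 (limma adjusted p = 0.017). Neither call held after median-of-ratios scaling, where the changes were −0.52 (limma adjusted p = 0.068) and −1.18 (adjusted p = 0.085). The Cox6b2 call was also lost without wildtype replicate 1 (−1.26, adjusted p = 0.058), with a pseudocount of 0.1 (−2.19, adjusted p = 0.078) and with quantile normalization (−0.84, adjusted p = 0.15). The 10 testis germ cell markers summed to at most 1.47 TPM in every library. Cox5a, Cox6c and Cox7a2 changed by 0.16, 0.07 and 0.08, and none passed the test.

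The muscle isoforms were low in full medium. Cox6a2 was at 0.702, 1.5 and 0.956 TPM in wildtype and 3.79, 3.11 and 4.19 TPM in KO libraries, a log2 change of 1.21 with a 95% interval from −0.15 to 2.56 (limma adjusted p = 0.12). Labelled KO, EBSS replicate 1 lies outside the comparison but enters the shared variance, with Cox6a2 at 12.4 TPM against 0.751 and 1.07 in its group, and with it left out Cox6a2 passed (adjusted p = 0.0024). It also passed with quantile normalization (1.58, adjusted p = 0.041) and in a fit of only the 6 full-medium libraries (adjusted p = 0.00011). Cox7a1 was at 3.31, 3.14 and 2.74 TPM in wildtype and 5.73, 1.18 and 6.76 TPM in KO libraries, so the groups overlapped. Its highest value was 23.4 TPM, in labelled wildtype, EBSS replicate 3, against 1.60 and 0.632 TPM in that group. The 13 skeletal and heart muscle markers summed to 9.78 to 11.1 TPM in wildtype and 60.5 to 75.4 TPM in KO cells, of which Acta1 held 45.5 to 58.1 TPM in KO. Ckm, the muscle creatine kinase, was at or below 0.0982 TPM in every library. The part of these cells' markers in the Cox6a2 values was not tested.

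**Figure D3:**
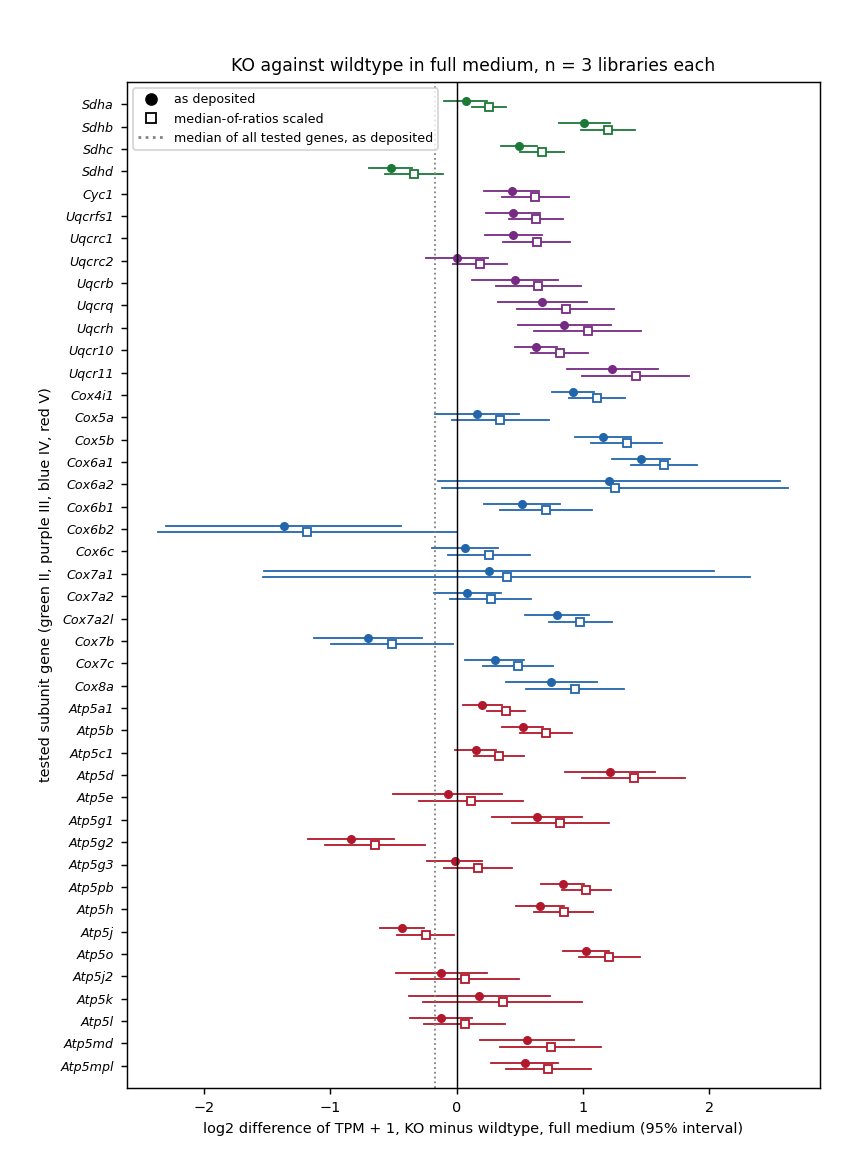
Log2 difference of TPM + 1 between KO and wildtype cells in full medium for each tested member, with its 95% interval from limma, as deposited (filled circles) and median-of-ratios scaled (open squares). The dotted line is the median of all tested genes as deposited, −0.17, and Cox6a1 lies farthest to the right at 1.46 as deposited.

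In complex V 9 of 17 members rose and 2 fell, against 20.1% and 35.8% of all tested genes. After median-of-ratios scaling 10 rose and 1 fell, against 26.7% and 27%. Of the F1 head, which makes ATP, Atp5d (delta; chromosome 10, 80138632 to 80145818) was at 439, 446 and 426 TPM in wildtype and 1065, 938 and 1050 TPM in KO libraries, a log2 change of 1.22 (SE 0.16, limma adjusted p = 7.8e-05). Atp5b went from 1723, 1512 and 1563 TPM to 2334, 2173 and 2384 TPM, a rise of 0.52 (limma adjusted p = 0.00012). Its partner Atp5a1, the alpha subunit, rose by 0.20 (adjusted p = 0.03), and that call was lost without any of 5 of the 6 full medium libraries (adjusted p of 0.061 to 0.12); only leaving out KO replicate 1 kept it. The gamma and epsilon genes Atp5c1 and Atp5e, at 0.15 and −0.07, did not pass, though Atp5c1 did after median-of-ratios scaling (0.34, adjusted p = 0.0082).

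The peripheral stalk, which holds the F1 head still, was split. Atp5o, the subunit known as OSCP, rose from 528, 519 and 523 TPM to 1150, 1056 and 993 TPM, a log2 change of 1.02 (limma adjusted p = 1.9e-06). Atp5pb and Atp5h rose by 0.84 and 0.66. Atp5j, the stalk's coupling factor, fell from 516, 529 and 541 TPM to 406, 374 and 395 TPM, −0.43 (limma adjusted p = 0.00079), and after median-of-ratios scaling it was at −0.25 (adjusted p = 0.066). The ratio of Atp5j to Atp5o was 0.977 to 1.03 in wildtype and 0.353 to 0.398 in KO cells. Atp5j overlaps Gabpa exons on the opposite strand, Atp5d overlaps Cbarp and Cox4i1 overlaps Emc8. Of the stalk genes that rose, Atp5pb overlaps Wdr77 and Gm42890 on the opposite strand, and Atp5o overlaps D430001F17Rik and Gm15976. Atp5o also overlaps another entry named Atp5o on its own strand. Whether strand was used in quantification is not given in the sources used here, so reads of such pairs may have been shared.

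The 3 c-ring genes did not share a direction. Atp5g1 (chromosome 11, 96068852 to 96075670) was at 138, 144 and 154 TPM in wildtype and 231, 207 and 242 TPM in KO libraries, and it rose by 0.64 (limma adjusted p = 0.0059). Atp5g2 (chromosome 15, 102662864 to 102672352) fell from 528, 523 and 471 TPM to 300, 290.4 and 262 TPM, −0.84 (limma adjusted p = 8e-04). Atp5g3 was at 549 ± 14.2 and 543 ± 30.4 TPM, a change of −0.02 (limma adjusted p = 0.9). As a share of the 3 genes' summed TPM, Atp5g1 was at 12.1% ± 0.902 in wildtype and 21.6% ± 2.14 in KO cells (SD, n = 3 each). The share of Atp5g2 was 42.2% ± 2.01 and 27% ± 0.945, and that of Atp5g3 45.7% ± 1.30 and 51.5% ± 1.2. In labelled KO, EBSS the shares were 13.6%, 42.1% and 44.3% for Atp5g1, Atp5g2 and Atp5g3. The 3 genes encode one mature protein and their mRNAs are alike in that part, so reads there may have been split between them. Of the small membrane subunits, Atp5md and Atp5mpl rose by 0.56 and 0.54, while Atp5j2, Atp5k and Atp5l, at −0.12, 0.18 and −0.12, did not pass. The Atp5md call was lost without KO replicate 2 (0.45, adjusted p = 0.066).

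**Figure D4:**
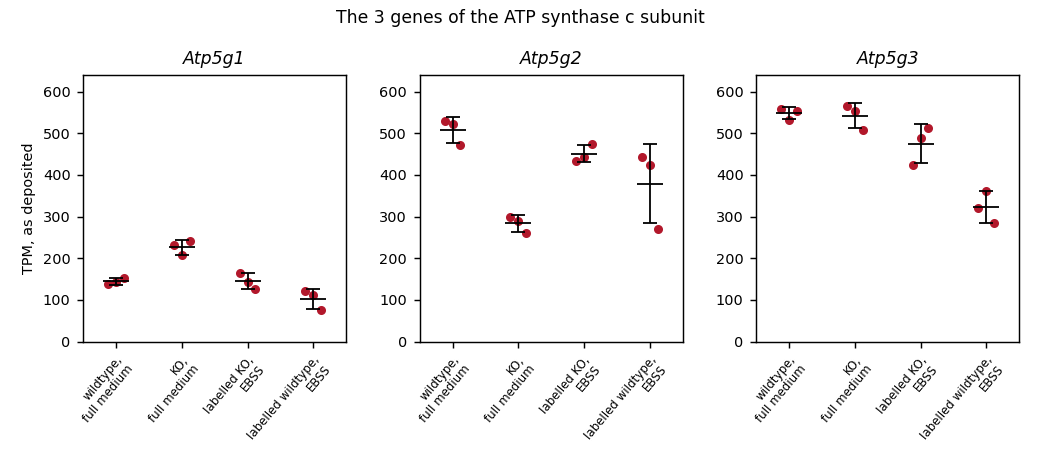
TPM of the 3 genes of the ATP synthase c subunit in each library (points), with group mean and SD (n = 3). In KO, full medium Atp5g1 lies above and Atp5g2 below every wildtype, full medium library, and Atp5g3 overlaps.

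Other genes of oxidative metabolism were read from lists. Of 36 tested complex I subunits, which take electrons from NADH, 31 rose and 1 fell, with a median of 0.62, against 20.1% and 35.8% of all tested genes that rose and fell, and their summed TPM went from between 6135 and 6267 to between 10090 and 11250. Of 33 assembly factors of complexes II to V, 12 rose and 4 fell, with a median of 0.24, and after median-of-ratios scaling 15 rose and 3 fell, where 26.7% and 27% of all genes did. Pet100, a complex IV biogenesis factor, rose from 17.6, 17.8 and 16.7 TPM to 75.4, 62.2 and 63.3 TPM, a log2 change of 1.88 (limma adjusted p = 6.8e-07). Sdhaf1, which helps insert the iron-sulphur clusters of Sdhb, rose by 0.91, and Cox18 and Tmem70, which act in the assembly of complexes IV and V, fell by 0.79 and 0.80. Of 21 electron carrier and ubiquinone synthesis genes, 8 rose and 1 fell: Cycs, cytochrome c, went from 124, 119 and 124 TPM to 240.3, 254 and 244 TPM. Of 17 citric acid cycle and pyruvate dehydrogenase genes, 6 rose and 0 fell, Cs (citrate synthase) by 0.71 (limma adjusted p = 5.6e-06). After scaling 8 carrier genes rose and 0 fell, and 7 cycle genes rose and 0 fell. Of 7 genes for exchange of ATP and phosphate, 1 rose and 2 fell, and after median-of-ratios scaling 4 rose and 0 fell.

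Of 16 tested regulators of mitochondrial transcription and biogenesis, 5 rose and 2 fell, beside the same 20.1% and 35.8% of all genes, and after median-of-ratios scaling 6 rose and 1 fell. Esrra, a nuclear receptor known to act on genes of oxidative phosphorylation, was at 15.8, 16.1 and 16.1 TPM in wildtype and 46.6, 41.2 and 43.2 TPM in KO libraries, a log2 change of 1.39 (limma adjusted p = 3.1e-06). Ppargc1a, its coactivator PGC-1α, was low but did not overlap between groups, at 0.930, 0.857 and 0.813 TPM against 4.89, 6.08 and 5.10 TPM, a change of 1.76 (limma adjusted p = 1.4e-05). Tfb1m, a methyltransferase of mitochondrial ribosomal RNA, rose by 1.12, and Gabpa, a subunit of GABP, rose by 0.39 (adjusted p = 0.012). Tfam, which packages mitochondrial DNA, fell by 0.46 (limma adjusted p = 0.016), a call lost after scaling (−0.28, adjusted p = 0.066), and Gabpb2 fell by 0.87. Nrf1 was at 34.8 to 35.6 TPM in wildtype and 26.9 to 31.4 TPM in KO libraries.

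Markers of other cell types moved in the same comparison. The 8 macrophage markers summed to 29.3 to 30.4 TPM in wildtype and 64.9 to 69.5 TPM in KO cells, of which Cd68 held 56.4 to 62.0 TPM in KO. Of the 4 tested, Cd68 rose by 1.78, Cd14 fell by 1.54 and 2 did not pass. Adgre1 and Ptprc, which define macrophages and leukocytes, were at or below 0.380 TPM in these 6 libraries. The 7 endothelial markers summed to 3.33 to 3.57 TPM in wildtype and 0.894 to 1.31 TPM in KO cells, and the 7 epithelial markers to 4.89 to 5.55 and 10.4 to 13.1 TPM. Of 12 fibroblast markers 0 rose and 9 fell, against 20.1% and 35.8% of all tested genes. In these bulk samples, fewer cells of a type and less RNA per cell cannot be told apart, and the part of cell composition in the subunit changes was not tested.

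In labelled KO, EBSS against KO in full medium, subunit mRNA was lower: 28 members fell, 3 rose and 13 did not pass, where 54.2% of all tested genes were called, 33.3% as higher and 20.9% as lower. The median change was −0.52 for the members and 0.13 for all genes. All 28 fell under both scalings, as 20.6% of all genes did. After median-of-ratios scaling 33 fell and 1 rose, with 25.8% and 26.2% of all genes. By complex, 2 of 4 members of complex II fell, 7 of 9 of III, 9 of 14 of IV and 10 of 17 of V. Both this comparison and the first use the KO, full medium libraries, so their values are not independent and are set side by side only. Of 12 fibroblast markers 10 rose and 1 fell here (9 and 1 after scaling), with a median of 1.06, and of 3 tested epithelial markers 0 rose and 2 fell. Their part in the subunit changes was not tested. Uqcr11 was at 422, 512 and 514 TPM in labelled KO, EBSS, a log2 change of −1.31 (limma adjusted p = 5.1e-05). Cox4i1 was at 717, 695 and 700 TPM, −1.05 (limma adjusted p = 1e-06), and Sdhb at 146, 154 and 138 TPM, −1.02 (limma adjusted p = 4.3e-06). In wildtype, full medium the means were 507 ± 19.9, 768 ± 41.0 and 147 ± 8.42 TPM.

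The 3 members that rose in that comparison were Atp5g2, Cox6b2 and Atp5j, which had fallen in KO cells in full medium. Atp5g2 was at 434, 444 and 473 TPM in labelled KO, EBSS, a log2 change of 0.67 (limma adjusted p = 0.0036), and it also rose after median-of-ratios scaling, at 0.52 (adjusted p = 0.03). Cox6b2, at 3.39, 3.44 and 3.70 TPM, rose by 1.48 (limma adjusted p = 0.012) and did not pass after that scaling (1.32, adjusted p = 0.06), with a pseudocount of 0.1 (2.33, adjusted p = 0.065) or with quantile normalization (0.96, adjusted p = 0.1). Atp5j rose by 0.27 (limma adjusted p = 0.015), and the call was lost after that scaling (0.12, adjusted p = 0.35) and without KO, full medium replicate 2 (adjusted p = 0.056) or labelled KO, EBSS replicate 2 (adjusted p = 0.07). Rbbp5 was at the wildtype level in labelled KO, EBSS, so medium and genotype cannot be told apart here.

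Labelled KO, EBSS and wildtype in full medium differ in both labels, and 0 of 44 members passed between them, with 0.134% of all tested genes called (limma). At an unadjusted p under 0.05 there were 14 of 44 members, against 1382 of 12653 tested genes. After median-of-ratios scaling 0 members passed, with 0.111% of all genes called. There 5 of 44 members had an unadjusted p under 0.05, against 1350 of 12653 genes. The median change was −0.13 for the members and −0.03 for all genes. The 95% intervals of 41 of the 44 changes lay within 1 log2 unit of 0. Those of Cox6a2, Cox6b2 and Cox7a1, the 3 low isoforms, did not. Within 0.58 log2 units of 0 lay 33 of the 44 intervals as deposited and 30 after median-of-ratios scaling. The smallest adjusted p was 0.1, for Cox6a1, at 638, 700 and 696 TPM against 435, 501 and 499 TPM in wildtype (log2 difference 0.50). Groups did not overlap for 7 members that were higher and 18 that were lower, against 13.6% and 24.7% of all genes. After scaling these were 7 and 11 members, against 19.5% and 18.7% of all genes.

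Calls in that comparison depended on single libraries. Replicate 1 of labelled KO, EBSS was the lowest of its 3 libraries for 31 of 44 members: Atp5k was at 324 TPM there against 689 and 685 TPM, Uqcrh at 286 against 480.2 and 484 TPM, and Cox6b1 at 479 against 726 and 749 TPM. With that library and replicate 3 of labelled wildtype, EBSS left out, a choice made after seeing the data, 7 members passed. Cox6a1 (0.55, limma adjusted p = 0.027) and Uqcrb (0.26) were higher, and Sdhd (−0.27), Cyc1 (−0.30), Uqcrc2 (−0.28), Cox6c (−0.23) and Atp5b (−0.31) were lower. Without replicate 3 of labelled wildtype, EBSS alone, Cox6a1 and Sdhd passed, with adjusted p of 0.049 and 0.048. That library lies outside the comparison and enters only the shared variance. The share of all tested genes that passed in these fits was not computed, so the member counts have no background beside them.

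For labelled wildtype, EBSS against wildtype in full medium, the direction of most members depended on the scaling. As deposited 7 rose and 27 fell, where 81.1% of all tested genes were called, 9.25% as higher and 71.8% as lower, and the median was −0.45 for the members and −0.94 for all genes. After median-of-ratios scaling 28 rose and 2 fell, with 30.7% and 35.4% of all genes called higher and lower, and medians of 0.55 and −0.09. For 14 members both calls passed with opposite signs. With quantile normalization 11 rose and 10 fell (30.8% and 33.2% of all genes), and with ribosomal protein genes left out 13 rose and 10 fell (15.1% and 57.9%). Both calls passed with the same sign for 7 members that rose and 2 that fell, against 9.25% and 35.4% of all genes. These 9 are named below and were picked for that after their values were seen.

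**Figure D5:**
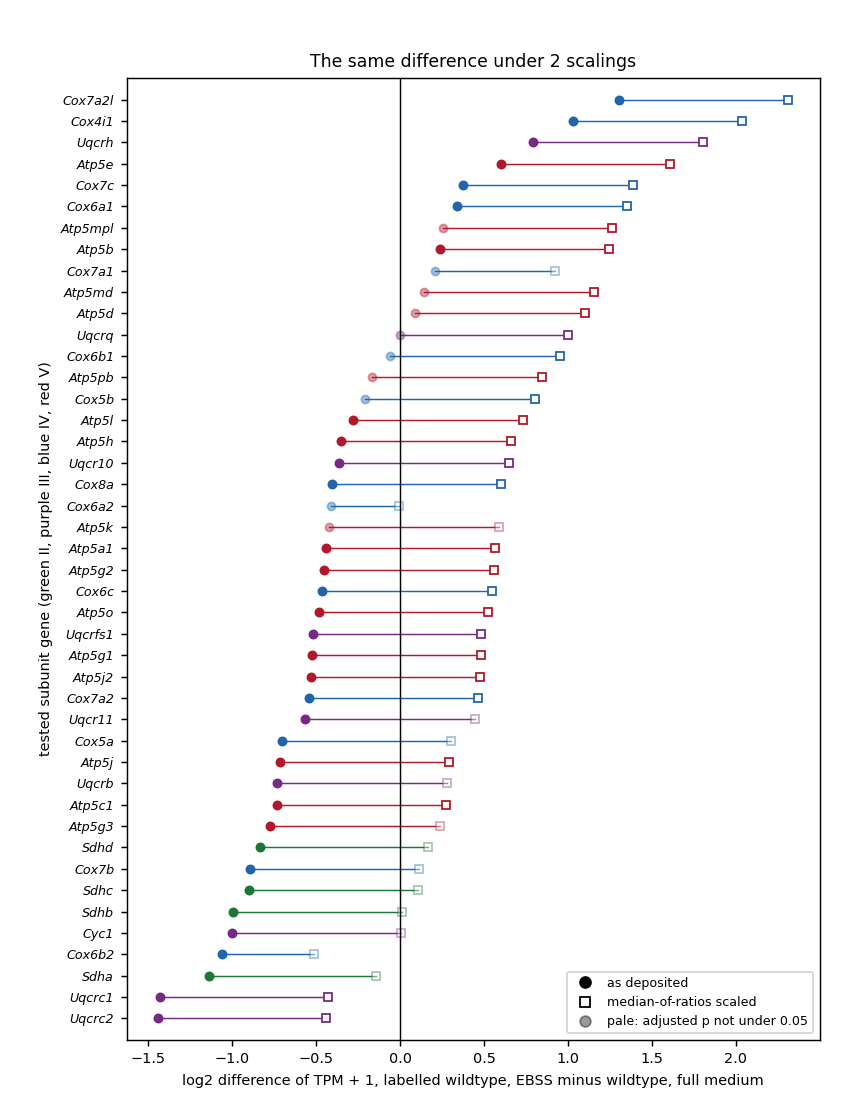
Log2 difference between labelled wildtype, EBSS and wildtype, full medium for each tested member, as deposited (filled circles) and median-of-ratios scaled (open squares). Each pair lies about 1 log2 unit apart where the gene is abundant, and only 9 members have both symbols called on the same side of 0: Cox7a2l, Cox4i1, Uqcrh, Atp5e, Cox7c, Cox6a1 and Atp5b to the right, Uqcrc1 and Uqcrc2 to the left.

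Cox7a2l, a relative of the 7a subunit that helps complexes III and IV join in supercomplexes, rose most. It was at 743, 663 and 810 TPM in labelled wildtype, EBSS against 299.9, 294 and 301 TPM in wildtype, full medium, a log2 change of 1.30 as deposited (limma adjusted p = 1.1e-06) and 2.31 after median-of-ratios scaling. Its ratio to Cox7a2 was 2.84 to 3.20 there, 0.770 to 0.866 in wildtype and 1.26 to 1.41 in KO in full medium, and 0.824 to 1.63 in labelled KO, EBSS. Cox4i1 was at 1574, 1608 and 1516 TPM, a rise of 1.03 (limma adjusted p = 2.8e-07), and Uqcrh at 824, 719.9 and 816 TPM, a rise of 0.79 (adjusted p = 0.00098). Atp5e, Cox7c, Cox6a1 and Atp5b rose by 0.60, 0.38, 0.34 and 0.24 as deposited. The call was lost for Cox6a1 without wildtype, full medium replicate 1 (adjusted p = 0.053), for Atp5b without replicate 2 of that group (0.055), and for Atp5e without that replicate 2 (0.052) or labelled wildtype, EBSS replicate 3 (0.054). With quantile normalization Atp5b was at −0.16 (adjusted p = 0.062).

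The core proteins of complex III fell. Uqcrc1 was at 74.6, 82.6 and 60.9 TPM against 199.9, 191 and 198 TPM, −1.43 as deposited (limma adjusted p = 2.2e-07) and −0.43 after median-of-ratios scaling (adjusted p = 0.0084). Uqcrc2 was at 39.2, 35.8 and 49.6 TPM against 118, 109 and 113 TPM, with changes of −1.44 and −0.44. Ratios between complexes do not change when a library is multiplied by a common factor, as in median-of-ratios scaling. Summed complex II mRNA was 0.0467 to 0.0523 of summed complex IV mRNA in labelled wildtype, EBSS, against 0.102 to 0.112 in wildtype and 0.0810 to 0.0900 in KO in full medium. The ratio of complex V to complex IV was 1.23 to 1.33 there, 1.59 to 1.73 in wildtype and 1.33 to 1.39 in KO in full medium. Across the 42 tested members matched to a GENCODE transcript length by symbol, the deposited change had a Spearman rho of −0.31 with length, and across 12413 tested genes −0.16. Genes are not independent replicates, and the part of transcript length in these differences was not tested.

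Between the 2 EBSS groups, labelled KO minus labelled wildtype, 23 members were higher and 7 lower as deposited, where 80.5% of all tested genes were called, 71.9% as higher and 8.58% as lower. After median-of-ratios scaling 2 were higher and 33 lower, with 34.6% and 29.2% of all genes. Uqcrc1 and Uqcrc2 were higher under both scalings, at 1.54 and 1.22 as deposited, and Uqcrh, Cox4i1, Cox7a2l, Cox7c, Atp5b, Atp5e and Atp5mpl were lower, where 34.6% and 8.58% of all genes were higher and lower under both. Among the 7 lower members, Cox4i1 had the largest deposited difference, −1.15 (limma adjusted p = 1.5e-07). The Atp5b call was lost with quantile normalization, at −0.16 (adjusted p = 0.068). Rbbp5 did not separate these groups as labelled under either scaling, so the difference is not one between known genotypes.

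Labelled wildtype, EBSS against KO in full medium, which also differ in both labels, had 3 members higher and 33 lower as deposited, where 75.1% of all tested genes were called, 11.6% as higher and 63.5% as lower. After median-of-ratios scaling 13 were higher and 10 lower, with 30% and 33.2% of all genes. Under both, Cox7a2l, Atp5e and Atp5g2 were higher, and 10 members were lower, against 11.6% and 33.2% of all genes. The 10 were Sdha, Sdhb, Sdhc, Cyc1, Uqcrc1, Uqcrc2, Uqcr11, Cox5b, Cox6a1 and Atp5o. Sdhb differed most among the last, at 75.2, 64.0 and 81.7 TPM against 301, 297 and 293 TPM, −2.01 as deposited (limma adjusted p = 1.7e-08) and −1.19 after scaling. The deposited Atp5g2 call (0.39, adjusted p = 0.039) was lost without 8 of the 12 libraries in turn, among them each KO, full medium library, at 0.26 to 0.43.

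The genotype by medium interaction asks whether the labelled genotype difference was not the same in EBSS as in full medium. As deposited it was positive for 11 members and negative for 17, where 76.7% of all tested genes were called, 64.2% as positive and 12.5% as negative. After median-of-ratios scaling it was negative for 33 and positive for 0, with 34% and 32.8% of all genes positive and negative. The 17 negative members were negative under both scalings, as 12.5% of all genes were, and 0 members were positive under both, against 34% of all genes. In complex II Sdha, Sdhc and Sdhd were positive as deposited, with a median of 0.63 over its 4 members beside 1.06 over all genes. After scaling Sdhb and Sdhc were negative, so Sdhc passed with opposite signs (0.29 and −0.85), and the medians were −0.51 and 0.05. The largest deposited interaction was that of Cox6b2, 2.54 (limma adjusted p = 0.0023), which did not pass after scaling (1.83, adjusted p = 0.052). Since Rbbp5 in labelled KO, EBSS goes against its label under both scalings, this term does not compare known genotypes.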

How the data were processed

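Per the labels' protocols, poly(A) RNA of 12 fibroblast libraries was prepared with an Illumina TruSeq kit. The authors deposited TPM per gene symbol in a single table. Salmon and mm10 are named in the submitters' processing notes, but not its version, the annotation or the use of strand (not given in the sources used here). Column sums were 92.3% to 99.4% of 1e+06 TPM. TPM keeps no counts or depth, so no count model and no counting interval was used.

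Values were transformed to log2(TPM + 1), which understates the change of low genes. The 4 group means were fitted in a linear model with limma 3.58.1 (R 4.3.3), with a variance trend, to the 12653 symbols that reached 1 TPM in 3 or more libraries. Groups and replicate numbers came from the sample titles. The 7 contrasts are two-sided, Benjamini-Hochberg adjusted over all tested genes, with 0.05 as the threshold. Member rows alone are printed. Median-of-ratios scaling used 11371 genes above 0 in every library. On simulated data for KO against wildtype in full medium, with 200 of 12653 genes changed, the procedure recovered 70% of those changed by 1 log2 unit and 94% of those changed by 2 log2 units, and 4.65% of its calls were false. For labelled KO, EBSS against KO in full medium these shares were 67%, 96% and 7.91%, and for the interaction 50%, 85% and 7.53%. The simulation gave all 4 groups the same spread for a gene and no shift in size factors. It also changed fewer genes than most of these comparisons called. Its shares therefore do not give the error rate of the calls in these data.

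The members and gene lists were chosen with earlier results of these data known. Named members are, per complex, the most abundant and those with the largest rise and fall in KO cells in full medium, and all isoform sets. Others were named after their values were seen. Gene coordinates are from GENCODE vM21 (GRCm38), where 46 of 48 members matched by symbol and the others by synonym, and promoters are from RefSeq (GRCm38.p6). In GENCODE, 13 members overlap an exon of another gene on the opposite strand and 2 on the same strand, and 6 names of processed pseudogenes derive from members. Figures were drawn with matplotlib 3.10.9 (Python 3.11.15).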

Additional observations from a re-analysis of the deposited data

Results flagged for a closer look

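The genotype by medium interaction passed for 28 of 44 members as deposited (limma, Benjamini-Hochberg), a test of whether the labelled genotype difference was the same in the 2 media, where 76.7% of all tested genes passed. It was positive for 11 members and negative for 17, against 64.2% and 12.5% of all tested genes. The largest in size was that of Cox6b2, at 2.54 (limma adjusted p = 0.0023). After median-of-ratios scaling 0 members were positive and past the threshold, against 34% of all tested genes. Named among the negative ones, for its size under both scalings, is Cox4i1, with a log2 interaction of −2.08 (adjusted p = 2.6e-08). Cox7a2l was at −1.89 (adjusted p = 1e-06), Uqcrh at −1.80 (2.9e-05), Cox6a1 at −1.29 (1.1e-05), Atp5mpl at −1.17 (7e-05) and Atp5d at −1.16 (0.00067). After median-of-ratios scaling the same 6 members were at −3.23, −3.04, −2.96, −2.45, −2.32 and −2.31. Rbbp5 goes against the label of labelled KO, EBSS under both scalings and against that of labelled wildtype, EBSS only as deposited.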

How the results depend on the processing

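Of the 31 members called between KO and wildtype in full medium, 24 (22 higher, 2 lower) kept their call under every alternative except the 2-fold minimum. In that comparison 55.9% of all tested genes were called. The share of those that kept their call was not computed, so the 24 have no background beside them. Requiring at least a 2-fold change left 7 calls there, 7 between the EBSS groups, 7 for labelled wildtype, EBSS against wildtype, full medium, 6 for labelled KO, EBSS against KO, full medium, 17 for labelled wildtype, EBSS against KO, full medium and 13 for the interaction. Median-of-ratios scaling gave 23 calls for labelled wildtype, EBSS against KO, full medium, and quantile normalization 21 for labelled wildtype, EBSS against wildtype, full medium, where Atp5b was at −0.16. For labelled KO, EBSS against wildtype, full medium, quantile normalization, a fit of the 2 groups alone and a fit without labelled wildtype, EBSS each gave 1 call, and leaving out both libraries that stood apart gave 7. With each library left out in turn, calls numbered 27 to 32 for KO against wildtype in full medium, 26 to 32 between the EBSS groups, 29 to 37 and 29 to 35 for EBSS against full medium in labelled wildtype and labelled KO, 0 to 2 for labelled KO, EBSS against wildtype, full medium, 31 to 36 for labelled wildtype, EBSS against KO, full medium and 27 to 30 for the interaction. For the 2-fold minimum, the replicate block below and the fits to fewer libraries, the share of all tested genes called was not computed. Those counts therefore describe how member calls move and have no background beside them. The causes were not tested.

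Same-numbered libraries did not deviate together (r of −0.0728 to 0.0793 over 18 pairs, against −0.0978 to 0.0879 over 36 pairs with different numbers). This cannot tell whether same-numbered libraries shared an embryo, culture or batch. With the replicate number as a block, 30 members were called between KO and wildtype in full medium, 28 between the EBSS groups, 34 and 31 for EBSS against full medium in labelled wildtype and labelled KO, 0 for labelled KO, EBSS against wildtype, full medium, 34 for labelled wildtype, EBSS against KO, full medium and 28 for the interaction. Low isoforms are limited by an unknown depth.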
